A study of Homo sapiens with 14 samples.

Results

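TRMT2A iCLIP sites at which FICC-Seq gave almost no counts, and which lay outside the tRNA clusters listed with the study, numbered 368 of the 1456 iCLIP sites of the series. To be a site, a position needed 4 or more cDNA counts in the sum of the 6 iCLIP libraries, and no position up to 3 nt away on the same strand could have more (where positions tied, the most 5′ one was taken). It was kept when the 6 FICC-Seq libraries together held at most 1 count within 3 nt of it. It also had to lie more than 100 nt from any listed tRNA cluster and more than 10 nt from any other listed cluster on its strand, and off chrM and the span of histone genes on chromosome 6. The sites were thus chosen by the iCLIP sum and the FICC-Seq count, and both values are given below as a description with no test. The most like set, used for comparison, was the 326 iCLIP sites in the same regions with 2 or more FICC-Seq counts.

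The 14 libraries came from 2 human cell lines, HEK293 (embryonic kidney) and HAP1 (near-haploid), with 3 replicates of iCLIP and 3 of FICC-Seq from each line and 2 of miCLIP from HEK293. In iCLIP, UV light linked endogenous TRMT2A to the RNA it touched, with no drug and no altered enzyme. In FICC-Seq, cells received 100 µM 5-fluorouracil (5FU) for 24 h, which traps the endogenous enzyme on the uridine it acts on, and the antibody against TRMT2A was the same as for iCLIP. In miCLIP, a transfected, FLAG-tagged TRMT2A whose catalytic glutamate was replaced by alanine was pulled down with an anti-FLAG antibody 24 h after transfection, so its level was not that of the endogenous protein. HEK293 cells were grown in DMEM and HAP1 cells in IMDM at an early passage. The labels call the FICC-Seq samples untreated, and the treatment is taken from the study's protocols.

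TRMT2A methylates carbon 5 of the uridine at position 54 of cytosolic tRNAs, in the T-loop. The T-loop pairs with the D-loop and shapes the elbow of the tRNA. A cDNA of a crosslinked RNA tends to stop next to the crosslink, so the deposited position is the base just before the start of the read. Reverse transcription is also known to stop at 1-methyladenosine, a mark that most tRNAs carry at position 58. The eukaryotic initiator methionine tRNA, which starts translation, has A54 in place of the usual T54 and thus no uridine to methylate there.

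The label "outside tRNA" went against the genome sequence for many of the sites. The libraries and the reference used here came with no list of nuclear tRNA genes, so 429 genes (396 with T54 and 33 with A54) were found by their sequence, and 55 of the 368 sites lay on or within 30 nt of one of them. A further 171 sites lay on no such gene, but the 15 bases after the site matched a stretch of a tRNA, of a tRNA followed by its CCA tail, or of a tRNA gene followed by its 3′ trailer, with at most 2 mismatches. Of the rest, 56 lay on an annotated gene of another small RNA and 7 on the ribosomal DNA contig. Next came 10 sites followed by bases like the 3′ end of 18S rRNA, 25 at which at least 12 of the next 15 bases were the same, and 44 with none of these features. These 7 groups were set up after the sequences had been seen.

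The 10 sites with the highest iCLIP sums are shown because together they held 17.1% of the 3131 counts at the 368 sites. Each line gives 30 bases of GRCh37 (hg19), 5′ to 3′ on the strand of the site, with the site in capitals, so the cDNA read begins at the next base.
Initiator methionine tRNA, position 58, chr6:27560596-27560625, minus strand: cgatggatcgAaaccatcctctgctaggtg
Initiator methionine tRNA, position 58, chr17:80452593-80452622, minus strand: cgatggatcgAaaccatcctctgctataga
Initiator methionine tRNA, position 58, chr6:26286800-26286829, plus strand: cgatggatcgAaaccatcctctgctaggtc
Leu-CAA-like, no annotated gene, chr16:27404314-27404343, plus strand: gaattctttaTctggcacaactatctttcc
Initiator methionine tRNA, position 58, chr6:26330525-26330554, minus strand: cgatggatcgAaaccatcctctgctaggga
RNU2-2P, base 122 of the gene, chr11:62609141-62609170, minus strand: ggagatggaaTaggagcttgctccgtccac
Leu-CAA-like, intron of TNXB, chr6:32015393-32015422, minus strand: ctctatcagcCctgacacaaccatcttaac
Leu-CAA-like, intron of HAND2-AS1, chr4:174469113-174469142, plus strand: ccgagccttgAccacttctgacgcagctgt
Leu-CAA-like, no annotated gene, chr10:82767961-82767990, plus strand: ctattgaagcTccactcctgacacagctga
Leu-CAA-like, no annotated gene, chr6:50502370-50502399, plus strand: ttaggtggccAccacttctgacacaattcc

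Most of the 368 sites were shallow. The median sum was 5 counts and the highest was 101, 73 sites had at least 10 counts and 26 had at least 20. At the lower threshold 121 sites had exactly 4 counts, and 332 positions with 3 counts met the rest of the rule. No FICC-Seq count was found within 3 nt of 280 sites and a single one at 88, while 58 sites were left out for having 2. Because the FICC-Seq libraries held 172826 counts and the iCLIP libraries 60890, 4 iCLIP counts would be 11.4 counts at the FICC-Seq depth. Within 3 nt of the sites the iCLIP libraries held 3954 counts, FICC-Seq 87 and miCLIP 1020. FICC-Seq thus gave 0.775% of the counts that the iCLIP share would give at its depth. The rule allowed at most 1 FICC-Seq count and required 4 or more iCLIP counts a site. A low share was thus fixed in advance and is no measure of depletion. At least 1 iCLIP count came from each cell line at 263 sites, from HEK293 alone at 56 and from HAP1 alone at 49. All 6 iCLIP libraries had a count at 25 sites, and 28 sites were seen in 1 library only.

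The libraries did not contribute evenly. The iCLIP libraries held between 7002 and 17432 counts, FICC-Seq between 15982 and 38957 and miCLIP between 39024 and 104605, and a count of 0 in the smallest iCLIP library allows up to 428 counts in a library scaled to 1000000 counts (CPM, 3 counts of its total, for counting error only). HEK293 replicate 1 had the most iCLIP counts, 28.6% of the iCLIP depth, but 39.2% of the counts at the 368 sites. At 115 sites more than 50% of the counts came from it, and 206 sites still had at least 4 counts without it. The rule applied anew without this library gave 207 sites. Its part differed between groups. It held 52.9% of the counts at the tRNA-like sites, 53.3% at the 18S-like sites and 47.7% at the runs of equal bases, but 22.5% on tRNA genes and 25.3% on other small RNA genes.

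Initiator methionine tRNA genes held the 3 highest of the 368 sites. The 8 genes found by sequence have the same 72 bases, so only reads that run into a flank can tell the copies apart, and the assignment of counts between copies is uncertain. Of these genes 6 held 18 sites with 455 counts, and the other 2 were among the listed clusters. At position 58, 5 sites held 302 counts, at position 48, 4 sites held 82, and 6 sites with 51 counts lay just before the gene.

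The site at position 58 of the gene at chr6:27560600-27560671 had 26, 18 and 13 counts in the HEK293 libraries and 9, 22 and 13 in the HAP1 libraries. The site at chr17:80452612 had 20, 14 and 14 in HEK293 and 4, 16 and 8 in HAP1. The one at chr6:26286810 had 17, 16 and 12 in HEK293 and 7, 11 and 10 in HAP1. All 6 libraries were thus well above 0 at each of the 3 sites, and the unscaled HEK293 and HAP1 counts overlapped at the first 2 of them. At the third the unscaled counts did not overlap, but the shares of the libraries did. There, 17 of 17432 counts in HEK293 replicate 1 was a smaller share than 11 of 9417 in HAP1 replicate 2. At the fourth copy, chr6:26330544, the counts were 11, 9 and 5 in HEK293 and 2, 7 and 12 in HAP1. Position 48 of the copy on chromosome 17, at chr17:80452622, had 7, 9 and 5 counts in HEK293 and 0, 6 and 4 in HAP1.

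FICC-Seq was almost empty along these 8 genes. Within 30 nt of them iCLIP held 1916 counts, FICC-Seq 14 and miCLIP 247. The FICC-Seq counts were 0, 1 and 0 in the HEK293 libraries and 0, 7 and 6 in the HAP1 libraries, and 10 of them fell on the listed copy at chr1:153643726-153643797. In iCLIP the genes took 2.94%, 4.54% and 4.83% of the HEK293 libraries and 1.60%, 2.70% and 3.38% of the HAP1 libraries. The highest iCLIP positions were 58 with 840 counts and 48 with 219. In miCLIP 175 counts lay at position 58 and 35 at position 54.

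The rule chose sites with few FICC-Seq counts, so the FICC-Seq values of the genes that hold them are a description. Beside the initiator genes, of the genes with A54 3 Ala-AGC genes and a Val-AAC gene held 1 site each, and no FICC-Seq count lay on any of these 4 genes. The Val-AAC site at chr6:27618723, at position 57, had 1, 3 and 3 counts in HEK293 and 0, 2 and 1 in HAP1. The Ala-AGC site at chr2:27274139, in an intron of AGBL5, had 3, 1 and 3 counts in HEK293 and 0 in all 3 HAP1 libraries. In all, 10 genes with A54 held 22 sites with 482 iCLIP counts. Over these whole genes FICC-Seq had 4 counts, 0 to 2 a gene, and none lay at positions 52 to 55.

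Sites on genes with T54 stood on a different background. The 28 genes with T54 held 33 sites with 270 iCLIP counts, and FICC-Seq had 2815 counts over the same genes, 2293 of them at positions 52 to 55. The spread between genes was wide, from 0 at 5 genes to 762, with a median of 4 and at least 5 counts at 14 genes. The FICC-Seq counts peaked at position 53 with 1411 counts and 54 with 824, followed by 58 with 307. For catalytic crosslinks the study predicts that the methylated base is often the one after the annotated position, which for 53 is base 54. The iCLIP counts peaked at 58 with 338, followed by 54 with 76. Of the 33 sites, 21 lay at position 57 or 58 and 7 at positions 46 to 48, more than 3 nt from position 53.

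The Asp-GTC gene at chr12:98897281-98897352 had the highest FICC-Seq count of them, 762. Its site, at position 48, had 0, 1 and 0 iCLIP counts in HEK293 and 1, 1 and 2 in HAP1, no FICC-Seq count within 3 nt and 750 at 4 to 20 nt. At the other end, the 2 Gln-CTG genes at chr6:28909378-28909449 and chr6:27263212-27263283 had no FICC-Seq count, yet the sites at their position 58 had 28 and 21 iCLIP counts. The first of these had 9, 5 and 5 counts in HEK293 and 1, 6 and 2 in HAP1. The second had 7, 3 and 1 in HEK293 and 2, 4 and 4 in HAP1. Both Gln-CTG sites were seen in all 6 iCLIP libraries. The gene at chr6:28909378 is 1 of 5 found with the same sequence, so the assignment of counts to this copy is uncertain. Some other genes with T54 that held a site also have copies, such as His-GTG with 9 genes of the same sequence. The Trp-CCA site at chr17:8124202, also at position 58, had 3, 3 and 4 counts in HEK293 and 4, 1 and 3 in HAP1, with 2 FICC-Seq counts on the whole gene. Of the 28 genes, 12 had no FICC-Seq count at positions 52 to 55.

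More sites were followed by tRNA-like bases than lay on tRNA genes. The read begins at the base after the site, so the bases compared are those with which the reads begin. Off the tRNA genes, the 15 bases after 133 of 313 sites (42.5%, 95% exact binomial interval 37.0 to 48.2) matched a tRNA stretch with at most 1 mismatch, against 2 of 313 windows 50 nt upstream of the sites (0.639%, 0.0775 to 2.29). With at most 2 mismatches, the limit of the group, 227 of all 368 sites (61.7%) and 42 of 368 upstream windows (11.4%) matched. With the 18 bases after the site set against tRNA 3′ ends and trailers with at most 3 mismatches, 202 of all 368 sites matched (54.9%, 49.6 to 60.1), 269 of the 326 sites with FICC-Seq counts (82.5%, 77.9 to 86.5) and none of the 368 upstream windows, which allows a share of up to 0.997%. With at most 1 mismatch the shares were closer, 20.1% (16.1 to 24.6) of the 368 sites and 25.8% (21.1 to 30.9) of the 326, and these intervals overlapped. The intervals cover counting error only, and sites that share a parent tRNA are not independent, so no test was made between the 2 sets. Of the 171 tRNA-like sites, 11 matched exactly, 119 with 1 mismatch and 41 with 2. The best match lay within the tRNA at 83 sites, ran into the trailer at 78, into the CCA tail at 3 and into either at 7. The study allowed 2 mismatches in mapping. Whether such reads came from the tRNA, from RNA of the place they were mapped to or from both was not tested.

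Leucine tRNAs accounted for most of this group. Of the 171 sites, 98 matched a leucine tRNA, with 940 of 1487 counts, and at 63 of these, with 740 counts, the match ran over the 3′ end of a Leu-CAA gene into its trailer. Among the 236 tRNA-like sites with FICC-Seq counts 141 (59.7%) matched leucine. Arginine followed in the 368 sites with 18 sites (140 counts), then threonine with 9 (51) and the mitochondrial leucine tRNA MT-TL1 with 9 (134). In the comparison set alanine was second with 18 sites, arginine had 3 and MT-TL1 1.

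The ends of 3 Leu-CAA genes, the Arg-ACG gene on chromosome 14 and MT-TL1 are shown because the tRNA-like sites described here matched them or sequences like them. Lower case is the end of the gene and capitals the trailer that follows it.
Leu-CAA, chr6:28908830-28908934, plus strand: ccacttctgacaCAACTATCTT
Leu-CAA, chr6:27570348-27570454, minus strand: ccacttctgacaCAGCTATTTT
Leu-CAA, chr6:28864000-28864105, minus strand: ccacttctgacaCATACTTTTC
Arg-ACG, chr14:23398910-23398982, plus strand: cgactcctggctggctcgGTGGGGTT
MT-TL1, chrM, plus strand: caattcctcttcttaaca

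The first 15 bases after the sites in HAND2-AS1, on chr10 and at chr6:50502380 printed above matched such an end and trailer with 1, 1 and 0 mismatches. The letters CTTCTGACA end the Leu-CAA genes printed above and also Leu-CAG genes on chromosome 16. These letters stood in the 20 bases after 29 of the 368 sites (7.88%) on the strand of the site. They stood after 47 of the 326 sites with FICC-Seq counts (14.4%), after 14 of the 682 sites at tRNA clusters (2.05%), and in none of the windows of equal length 50 nt upstream of the 368 sites.

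The Leu-CAA trailer sites were dominated by HEK293 replicate 1. The site at chr16:27404324 had 36, 3 and 1 counts in HEK293 and 4, 1 and 2 in HAP1. The site in TNXB, a tenascin of the extracellular matrix, had 31, 2 and 0 in HEK293 and 3, 2 and 1 in HAP1. At chr6:50502380 the counts were 23, 3 and 1 in HEK293 and 7, 1 and 1 in HAP1. In all 3 the first HEK293 library stood far above the other 5, which overlapped between the cell lines. Summed over the 63 sites, the HEK293 libraries gave 462, 61 and 24 counts, or 2.65%, 0.764% and 0.343% of the library, and the HAP1 libraries 85, 45 and 63, or 0.772%, 0.478% and 0.784%. At 40 of the 63 sites more than 50% of the counts came from HEK293 replicate 1, and 27 kept at least 4 counts without it. Only 2 of the 63 had a miCLIP count.

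The MT-TL1-like sites leaned to the same library. The highest, at chr7:33701117, had 26, 2 and 1 counts in HEK293 and 3, 1 and 2 in HAP1, and the next, at chr17:46147885, had 23, 5 and 1 in HEK293 and 2, 1 and 0 in HAP1. Over the 9 sites HEK293 replicate 1 held 72.4% of the 134 counts, and no miCLIP count was found at any of them. The 12 Arg-ACG-like sites were less uneven, with 42, 21 and 2 counts in HEK293 and 22, 10 and 11 in HAP1, of which HEK293 replicate 1 held 38.9%.

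Other small RNA genes set the 368 sites apart from the sites with FICC-Seq counts in number, with 56 sites (15.2%) against 1 (0.307%). Both sets leave out 62 iCLIP sites near other listed clusters, whatever their FICC-Seq counts. How many of those lay on small RNA genes was not counted, so the contrast may depend in part on the rule. They are mostly short noncoding RNAs, many of them, such as vault RNA, Y RNA, U6 and 5S rRNA, made by RNA polymerase III as tRNAs are. The fixed list of polymerase III RNAs held 39 sites with 262 counts on genes of 16 names, and the list of spliceosomal RNAs held 19 sites with 152 counts on 12 genes (U6 is in both). Together the 56 sites had 407 iCLIP counts, and 27 of them had a miCLIP count.

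U2, the spliceosomal RNA that pairs with the branch point, gave 14 sites on 8 genes with 130 counts. RNU2-2P, at chr11:62609091-62609281, held 6 of them with 84 counts. Its main site, at base 122, had 8, 7 and 13 counts in HEK293 and 5, 3 and 8 in HAP1. It was seen in all 6 libraries, and the ranges of the 2 cell lines overlapped. The site at base 47 had 6, 2 and 5 counts in HEK293 and 0, 0 and 1 in HAP1, with no overlap. Over the whole gene iCLIP had 162 counts, FICC-Seq 1 and miCLIP 17. On 5 other U2 copies the site lay at the same base of the gene, 92, with 4 to 8 counts each. The copies are near-identical, so how the authors' counting split the reads between them is uncertain.

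Vault RNAs, the RNA part of the vault particle, gave 12 sites on 3 genes with 125 counts, of which VTRNA1-1 held 7 sites (78 counts) and VTRNA1-2 held 4 (43). Their highest site, at base 37 of VTRNA1-1, chr5:140090896, had 1, 4 and 6 counts in HEK293 and 5, 2 and 2 in HAP1. The site just before VTRNA1-2, at chr5:140098509, had 1, 0 and 11 counts in HEK293 and 1, 0 and 5 in HAP1, so the third replicate of both lines held 16 of its 18 counts. On the whole VTRNA1-2 gene iCLIP had 255 counts, FICC-Seq 2 and miCLIP 167, and on VTRNA1-1 the numbers were 194, 1 and 25.

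Y RNAs, partners of the Ro60 protein, gave 17 sites on 14 genes and pseudogenes with 92 counts. RNY1 at chr7:148684228-148684340 held 4 sites with 25 counts, and its 5′ site had 1, 1 and 4 in HEK293 and 0, 1 and 2 in HAP1. No FICC-Seq count lay within 3 nt of any Y RNA site or on RNY1, where iCLIP had 33 counts and miCLIP 20. The U6 RNA, which takes part in catalysis in the spliceosome, gave 5 sites on 4 copies. At 4 of them, at base 40 or 42, HAP1 replicate 1 had 3 counts each, and no other library had more than 1. The counts of the copies at chr5:108350602 and chrX:100889061 were the same in all 6 libraries. So were those of the Y RNA sites at chr7:43136405 and chr7:128804764, and those of RNY4P3 and the Y RNA site at chr16:68123415. Whether the same reads were counted at more than 1 copy was not tested, so the numbers of sites and counts of these families are uncertain. The 5S rRNA and its pseudogenes gave 5 sites with 4 or 5 counts each. Over each of these 5 genes FICC-Seq and miCLIP had no count.

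Ribosomal RNA appeared in 2 forms. The 7 sites on the ribosomal DNA contig had 4 to 9 iCLIP counts each, and every one of them had a miCLIP count. The site at Un_gl000220:118073 had 1, 1 and 1 iCLIP counts in HEK293 and 0, 1 and 0 in HAP1, but 19 and 82 miCLIP counts, the highest miCLIP sum of all 368 sites. The 10 sites with 18S-like bases lay elsewhere in the genome, and the bases after them held TGCGGAAGGATC with at most 2 mismatches within 20 bases, on the strand of the site. These letters were read near the 3′ end of 18S in the contig, which holds 2 copies of them. The same was true of 0 of the 326 sites with FICC-Seq counts and of 0 of the upstream windows.
A pair of sites that hold these letters without a mismatch is shown.
No annotated gene, chr3:183531312-183531341, plus strand: aaccccctcgActtgcggaaggatctttag
No annotated gene, chrX:114299470-114299499, minus strand: gtgagatgatTtcctgcggaaggatcagaa
In the 18S-like group 8 of 10 sites had counts in HEK293 only, against 56 of all 368 sites. These 8 passed the rule through HEK293 alone, so their lack of HAP1 counts is not independent of the rule. The site at chr3:183531322 had 8, 1 and 0 counts in HEK293 and 0 in all 3 HAP1 libraries, while the one at chrX:114299489 had 4, 6 and 3 in HEK293 and 1, 2 and 3 in HAP1. Without HEK293 replicate 1 only 2 of the 10 kept 4 counts.

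No gene is annotated on the strand of 209 sites (56.8%), against 242 of the 326 sites with FICC-Seq counts (74.2%), and on either strand the numbers were 126 (34.2%) and 133 (40.8%). By strand, 70 sites lay in protein-coding genes and 30 in long noncoding RNA genes. In all, 87 sites were intronic, 9 lay in untranslated and 3 in coding exons. No snoRNA or chaperone gene, mitochondrial pseudogene, MALAT1 or NEAT1 held a site, nor did a histone gene outside the excluded span on chromosome 6. That span held 11 iCLIP sites, left out by the rule whatever their FICC-Seq counts. Ribosomal protein genes held 1 site, in RPL4 with 4 counts, all from HAP1 replicate 1. Genes named as translation factors held 2, in EIF3J (4 counts, all from HAP1 replicate 3) and in an intron of EIF2AK2, whose product is a kinase of the initiation factor eIF2, where the site ran into a stretch of T. The list of tRNA methyltransferases held 1 site, in TRMT2A itself. It lay in a coding exon at chr22:20100688, with 5 iCLIP counts, all in HAP1 replicate 1, no FICC-Seq count and 8 miCLIP counts. TRMT2A was expressed from a transfected construct in the miCLIP cells, and its part in these 8 counts was not tested.

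The 44 sites with none of the sequence features were shallow too, with a median of 4 counts. The highest, in an intron of U2SURP at chr3:142740676, had 9, 3 and 0 counts in HEK293 and 5, 2 and 5 in HAP1, and its next 15 bases were 3 mismatches from the Leu-CAA trailer, just past the limit used for the tRNA-like group. The next, at chr7:21050946 in an intron of ENSG00000285592, had 0 counts in all 3 HEK293 libraries and 6, 2 and 5 in HAP1, and was also 3 mismatches from that trailer. Sites that ran into equal bases (25) had a median of 5 counts.

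The rule used the iCLIP sum over both cell lines, and a site could pass it through 1 line or library alone, so the comparison of the lines at these sites is not independent of how they were chosen. Within 3 nt of the 368 sites lay 8.90%, 6.27% and 6.44% of the counts of the HEK293 iCLIP libraries and 4.93%, 4.52% and 5.99% of the HAP1 libraries. All 3 HEK293 libraries stood above all 3 HAP1 libraries, and the means were 7.21% ± 1.47 and 5.15% ± 0.755 (SD, n = 3). The difference of 2.06 percentage points had p = 0.1 in a two-sided exact permutation test, the smallest p that 3 against 3 libraries can give, so it could not pass 0.05. Without HEK293 replicate 1 the HEK293 mean was 6.36% and the difference 1.21 percentage points (exact permutation p = 0.2). The cell lines were made in separate sequencing sets according to the file headers, so cell line and set cannot be told apart in any comparison between them.

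By group, the same order of libraries held for other small RNA genes, the ribosomal contig and the 18S-like sites. On small RNA genes the shares were 1.18%, 1.50% and 2.41% in HEK293 and 0.862%, 0.690% and 0.971% in HAP1. At 18S-like sites they were 0.281%, 0.288% and 0.100% in HEK293 and 0.0182%, 0.0212% and 0.0373% in HAP1. These 3 differences also had the smallest exact permutation p of 0.1, or 0.233 after Benjamini-Hochberg adjustment over the 7 groups, and so did not pass. Of the 10 18S-like sites, 8 passed the rule through HEK293 alone, so their order of libraries is not independent of the rule. The groups were set up after the sequences had been seen, so the p-values by group are a description. At tRNA-like sites the shares were 4.89%, 1.83% and 0.828% in HEK293 and 1.99%, 1.59% and 2.14% in HAP1 (exact permutation p = 0.9), with the HAP1 libraries inside the range of the HEK293 ones. On tRNA genes they were 1.38%, 2.09% and 2.41% against 0.935%, 1.68% and 1.97%, which overlapped (exact permutation p = 0.4). At the sites with none of the sequence features the order was turned, with 0.459%, 0.163% and 0.214% in HEK293 and 0.790%, 0.404% and 0.622% in HAP1, where HAP1 was higher in each same-numbered pair (exact permutation p = 0.2). At runs of equal bases the shares were 0.625%, 0.250% and 0.271% in HEK293 and 0.300%, 0.0743% and 0.199% in HAP1 (exact permutation p = 0.3).

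**Figure D1:**
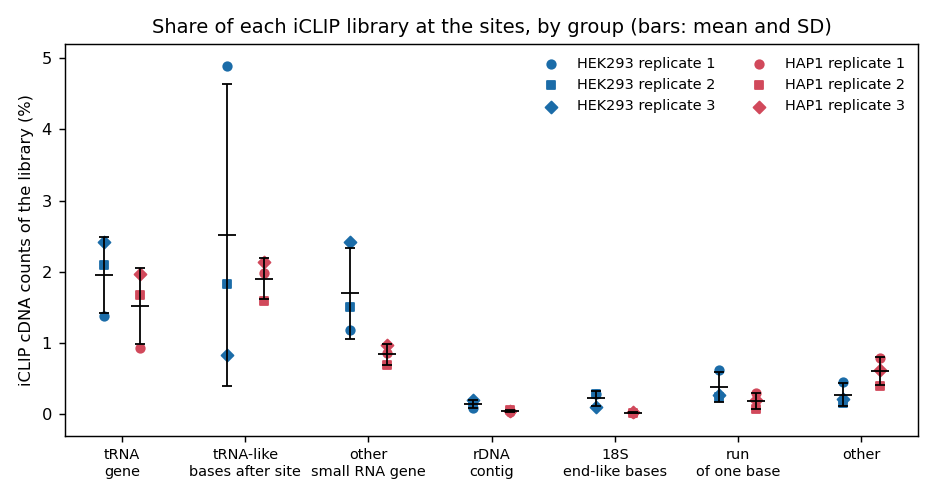
Points give the percentage of each iCLIP library's counts within 3 nt of the sites of each group, for HEK293 (blue) and HAP1 (red), with the shape of the point showing the replicate and black bars the mean and SD of 3 libraries. HEK293 replicate 1 lies at 4.89% at tRNA-like sites, above all other points, and on other small RNA genes the 3 HEK293 libraries lie above the 3 HAP1 libraries.

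Few single sites were called as different between the lines. A limma test of log2(CPM + 100), fitted on all 1456 iCLIP sites, called 19 of them (1.30%) at an adjusted p under 0.05, and 3 of the 368 sites (0.815%). Of all sites 0.343% were called as higher in HEK293, of the 368 sites 2, and 0.962% as higher in HAP1, of the 368 sites 1. With the replicate number as a block the calls were 43 of 1456 (2.95%) and 7 of the 368 sites (1.90%), with 9 of all sites (0.618%) and 4 of the 368 higher in HEK293, and 34 (2.34%) and 3 higher in HAP1. The median HEK293-minus-HAP1 difference was 0.17 on this log2 scale at the 368 sites and -0.06 over all sites. Leaving out any 1 library lowered the count to 0, or to 1 without HEK293 replicate 3, and 16 to 43 sites then had an unadjusted limma p under 0.05, with 91 to 151 of all 1456. In the full set these counts were 32 of 368 and 133 of 1456, which is about the same rate.

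Higher in HEK293 were the Leu-CAA-like sites in HAND2-AS1 and at chr10:82767971. Within 3 nt the first had 36, 5 and 3 counts in HEK293 and 0, 1 and 0 in HAP1 (log2 difference 2.88, SE 0.75, limma adjusted p = 0.0391). The second had 31, 8 and 2 in HEK293 and 1, 0 and 0 in HAP1 (2.90, SE 0.75, limma adjusted p = 0.0391). In both the HEK293 counts lay above those of HAP1 in 3 of 3 libraries, with most of them in replicate 1. Higher in HAP1 was the Leu-CAA-like site at chr17:71148921, with 0 counts in all 3 HEK293 libraries and 9, 2 and 10 in HAP1 (-2.86, SE 0.76, limma adjusted p = 0.0449). Against 3 counts over the HEK293 group, its share of the HAP1 counts was at least 7.97-fold higher. Each of the 3 sites reached the minimum of the rule almost wholly through the line in which it was called higher, so the call is not independent of the rule. Its bases are shown beside those of the chr10 site above, as both are followed by the Leu-CAA end though they lean to opposite cell lines.
Higher in HAP1, no annotated gene, chr17:71148902-71148931, minus strand: tctatccttcTccacttctgacactttccc
With the block, RNU2-2P base 47 and the site in a run of A at chr2:36067863 were also called as higher in HEK293, and the sites at chr7:21050946 and in an intron of TMA16 (chr4:164416968) as higher in HAP1. These sites too passed the minimum of the rule wholly or almost wholly through the line in which they were called higher. Their calls are thus not independent of the rule either. The RNU2-2P site had 6, 4 and 9 counts within 3 nt in HEK293 and 0, 0 and 2 in HAP1, with limma adjusted p = 0.194 without the block and 0.0284 with it.

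miCLIP counts were not counted at the sites by the rule, but the listed clusters that the rule leaves out were compiled from all the experiments, miCLIP among them, so the values are a description. At least 1 miCLIP count lay within 3 nt of 129 of the 368 sites (35.1%, 95% exact binomial interval 30.2 to 40.2), 84 in replicate 1 and 119 in replicate 2, the deeper library, with 74 in both. Of the 326 sites with FICC-Seq counts 173 had one (53.1%, 47.5 to 58.6). Off the tRNA genes found by sequence the shares were 29.7% (24.7 to 35.1) and 49.0% (43.2 to 54.8). Sites are not replicates, and the intervals cover counting error only.

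On the tRNA genes that held a site, most miCLIP counts lay on genes with T54. There, 32 of 33 sites had a miCLIP count, 482 in all, and on genes with A54 4 of 22 had one, 7 in all. Over the whole genes miCLIP had 3607 counts on the 28 with T54 and 9 on the 10 with A54. The 2 initiator methionine copies among the listed clusters, which have the same bases as the other 6, had 231 and 10, so the low value for A54 holds for the genes that the rule left in. The sites with the highest miCLIP counts after the ribosomal one were on Asp-GTC at chr12:98897327 (21 and 43 counts in the 2 libraries), Ser-GCT at chr6:27265831 (21 and 41), Cys-GCA at chr7:149286179 (15 and 21) and Arg-ACG at chr6:27181638 (10 and 20). All 4 are genes with T54, and both libraries had counts at each.
Asp-GTC, position 48, chr12:98897317-98897346, plus strand: acgcgggagaCcggggttcaattccccgac
Ser-GCT, position 48, chr6:27265821-27265850, plus strand: gctctgcacgCgtgggttcgaatcccacct
Cys-GCA, position 58, chr7:149286160-149286189, minus strand: ccctggttcaAatccaggtgccccctccct
Arg-ACG, position 58, chr6:27181619-27181648, minus strand: tctaggttcgActcctggctggctcggagg
In each of these the T-loop letters GTTC stand in lower case, and the first T of the pair is T54. The initiator methionine bases printed first read GATC in the same place.

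Few of the sites had FICC-Seq counts outside the window of the rule. At 4 to 50 nt from the site, 304 of the 368 sites (82.6%) had no FICC-Seq count. Summed site by site, the counts there came to 4453, of which 4332 belonged to the 55 sites on tRNA genes. A count near more than 1 site enters these sums once for each site. The sum of 4326 by genes with T54 thus exceeds the 2815 FICC-Seq counts on those genes, and 6 lay by genes with A54. The 55 sites were uneven as well, with 4260 at 10 sites, a median of 1 and none at 23 sites. The 313 other sites had 121 in all, with none at 281 of them. Of the sites with FICC-Seq counts, 236 of 326 (72.4%) had none in that outer window.

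Base composition around the sites off tRNA genes swung more after the site than before it. From 15 nt before to the site itself no base made up more than 34.9%. At 2 nt after the site thymine stood at 44.2% and adenine at 8.97%, and at 4 nt cytosine stood at 42.9% of 312 sites. At the sites with FICC-Seq counts cytosine reached 67.5% at 3 nt and thymine 54.3% at 2 nt. Groups of sites within 50 nt of each other numbered 334, so few sites share their surroundings, but many share a matched tRNA.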

How the data were processed

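iCLIP, FICC-Seq and miCLIP of TRMT2A were measured in 14 libraries of HEK293 and HAP1 cells. The authors deposited cDNA counts by position as whole numbers (unit: other, since minus-strand counts carry a minus sign), without scaling. They had used iCount to drop PCR duplicates by random barcodes, trim adaptors and map reads with bowtie to hg19 (Ensembl 59), keeping uniquely mapping reads, so near-identical genes are only told apart by differing bases. Totals ran from 7002 to 104605 counts.

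Counts were summed as deposited. Genes came from GENCODE 44 mapped to GRCh37, and tRNA clusters from the supplement of the study, of which 493 are tRNA and 70 other. tRNA genes, with their names and positions, came from a search for an A box with a T-stem (4 or more base pairs) and an acceptor stem (6 or more).

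Sites were compared between cell lines with limma 3.58.1 (R 4.3.3) on log2(CPM + 100), CPM being counts scaled to 1000000 a library, within 3 nt, over all 1456 sites, scaled to the library total, with Benjamini-Hochberg adjustment. A count model had been planned but was not run, although the sign marks only the strand and the absolute values are whole counts. Fold differences on this scale are smaller than those of the counts. On simulated data for this comparison with 1456 sites, of which sites with at least 10 counts were changed, 33 of 100 sites changed 4-fold and 100 of 100 changed 16-fold were recovered, with 1 false call. Shares were compared by exact permutation of libraries. The study calls its replicates biological, and p-values measure the spread between these libraries. Same-numbered iCLIP libraries of the lines carry the same barcode in 3 of 3 cases, and their deviations from the group means correlated (r = 0.266, 0.266 and 0.240), so the number was also used as a block.

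Named were the 10 sites highest in iCLIP, the 5 highest in miCLIP, called sites, and genes with at least 3 sites or on a fixed list. Others were named after their values were seen. The sites and lists were chosen with earlier results of these data known. Base printing left out chromosome 8, with 14 of the sites, and 1 site had no reference sequence. The other tools were Python 3.11.15 with scipy 1.17.1 for the tests, pysam 0.24.0 for the sequences, pandas 2.3.3 for the tables and matplotlib 3.10.9 for the plots.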

Additional observations from a re-analysis of the deposited data

How the results depend on the processing

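The number of sites was 73 with a minimum of 10 counts, and leaving out 1 iCLIP library gave 207 to 332 sites, lowest without HEK293 replicate 1, and 1 FICC-Seq library 378 to 405. The other thresholds, windows and the removal of sites near tRNA genes kept it within 1.5 times of 368. Without HEK293 replicate 1 at least 4 counts remained at 46 of 55 sites on tRNA genes, 86 of 171 tRNA-like sites, 32 of 56 small RNA sites, 5 of 7 on the ribosomal contig, 2 of 10 18S-like sites, 6 of 25 runs of equal bases and 29 of 44 others. The difference in share between cell lines kept its direction under all 18 alternatives, with exact permutation p from 0.1 to 0.3. It was 1.21 to 2.53 percentage points when 1 library was left out with the sites kept and 1.06 to 2.72 with sites chosen anew, lowest without HEK293 replicate 1 in both. With the replicate block (sign permutation of the 3 pairs) it was 2.06 with exact p = 0.25, the smallest that 3 pairs can give. By limma, 3 sites differed between the lines, 7 with the replicate block, and 0 with a pseudocount of 25 (35 at an unadjusted p under 0.05, 139 of all 1456 sites), of 400 (27 and 117), with scaling to counts outside tRNA and chrM (31 and 127) and over the 623 sites with at least 10 counts (11 and 76), and 0 to 1 when 1 library was left out. The 3 sites kept their direction in all 13 alternatives each. DESeq2 was not run, and scaling to the library total, planned as an alternative, became the main setting. The share of sites with a miCLIP count was 20.9% for at least 3 counts and 22.8% to 32.3% with 1 miCLIP library. With genes on either strand 34.2% of sites had no annotated gene. The share read into a tRNA 3′ end was 37.0% with at most 2 mismatches, 20.1% with at most 1, and 61.7% with 15 bases against any tRNA stretch, an alternative chosen after seeing the data, as were the pseudocounts, the scaling outside tRNA and the counts by group. The cause of these changes was not tested beyond the stricter limits themselves. With 4 to 101 counts a site, depth limits every statement on a single site.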
